A study of Homo sapiens with 7 samples.

Results

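ACHN is a human renal cell adenocarcinoma line, and the cells described here carried an empty vector (EV), a pBabe-hygro retroviral plasmid with no insert, and had been selected with hygromycin. Their RNA was hybridised to 4 of the 7 arrays in the series, labelled EV1 to EV4, which are Agilent SurePrint G3 gene expression arrays read in a single colour. The study was designed to compare such control cells with ACHN cells that overexpress the long noncoding RNA HOTAIR. The arrays of the HOTAIR cells were not used here, so all values are levels in 1 group and no difference between conditions was tested. The cells had been grown in DMEM with serum, and RNA was purified on columns and labelled with Cy3. The labels give 1 RNA sample per array and do not say whether the 4 samples came from separate cultures or transductions, so the SD printed below is the spread between these samples, which may be technical.

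Renal cell carcinoma arises from the epithelium of the nephron, the filtering and transporting unit of the kidney. Its tumours usually keep the lineage factor PAX8 and the keratins of simple epithelia, and often gain mesenchymal genes such as VIM. The clear cell type typically loses VHL, the subunit that marks hypoxia-inducible factors for destruction, and then makes large amounts of carbonic anhydrase CA9, whereas the papillary type is known for activation of the receptor MET. A cell line holds no blood vessels, leukocytes or fibroblasts, so genes of those cells serve as a check of what the arrays report as absent.

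Each level below is the log2 of a probe's intensity minus the log2 of the array's 75th percentile of intensity, so 0 marks that percentile and each unit is a 2-fold step. EV2 stood apart from the other arrays, and levels that differed by more than 1 unit between EV2 and the mean of the other 3 arrays are given per array. The 75th percentiles of the 4 arrays lay between 523 and 649 intensity units, no spot was saturated, and 54.0% to 55.9% of the 58717 non-control spots were well above background by the scanner software's call. A gene was called expressed when at least 1 of its probes was well above background on all 4 arrays. It was called not detected when no probe was so on any array. Expressed genes were called bright at a mean level of 3 or more, middle from 0 to 3 and dim under 0, and the brightest expressed probe stood for the gene. The signal of a probe depends on its sequence as well as on the amount of RNA, so bands describe signal and do not rank the RNA copies of different genes, and less RNA in every cell cannot be told apart from fewer cells with the RNA.

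Of 18401 protein-coding genes with a probe, 11692 were expressed, which was 63.5%. The bright band held 1781 genes (9.68%), the middle band 4546 (24.7%) and the dim band 5365 (29.2%). A further 947 genes (5.15%) were well above background on some of the arrays, and 5762 genes (31.3%) were not detected. Over all 34800 gene names on the array, which include intervals of large intergenic noncoding RNAs and unnamed probes, 15805 (45.4%) were expressed and 2748 (7.9%) passed on some arrays. The median level of expressed protein-coding genes was 0.28. The limits of the bands depend on the percentile, and with the 75th percentile taken over spots well above background the bright band held 465 protein-coding genes. Not detected means below this call and not without RNA: by the software's milder call for a positive and significant signal, the protein-coding genes detected on no array numbered 2281.

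The genes taken as markers of this line split into expressed and undetected genes. VIM, an intermediate filament of mesenchymal cells, had levels of 6.56, 6.67, 6.56 and 6.96 on EV1 to EV4, a mean of 6.69 ± 0.19 (SD, n = 4). MET, the receptor of hepatocyte growth factor, had levels of 4.95, 4.87, 4.98 and 5.00, a mean of 4.95 ± 0.057 (SD, n = 4). Both genes lay in the bright band on every array. PAX8, the transcription factor that marks kidney epithelium and its tumours, had levels of 1.54, 1.62, 1.20 and 1.36, a mean of 1.43 ± 0.19 (SD, n = 4). CDH2, or N-cadherin, had levels of 2.93, 3.14, 2.94 and 2.90, a mean of 2.98 ± 0.11 (SD, n = 4), just under the limit of the bright band, and its other probe was also expressed. CA9, the carbonic anhydrase that is typical of clear cell tumours, did not pass the call on any array, with levels of -7.48, -7.27, -7.44 and -7.28. CDH1, or E-cadherin, the adhesion molecule of most epithelia, was likewise undetected, with levels of -7.62, -7.40, -7.48 and -7.11. For CA9 and CDH1 the array has 1 probe each, and these levels are the floor of the arrays and carry no order. The lineage factor PAX8 and MET, VIM and CDH2 were thus expressed, and the data do not show the CA9 signal of a clear cell tumour. The study's methods count ACHN among clear cell lines, a name that 1 undetected probe cannot decide and that was not tested.

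These calls rest on 60-base probes, and the first 30 bases of each of the 6 are shown, 5′ to 3′, because the calls depend on where they hybridise.
PAX8: ggcagaccctttccaactcacaaccaataa
MET: gtgtctggacagattgtgggagtaagtgat
VIM: tgattaagacggttgaaactagagatggac
CDH2: taccagaatataaatgatacacctctgacc
CA9: cagttgctgtctcgcttggaagaaatcgct
CDH1: aaatcaaccctgcaatcactttttggaatt
The array's annotation on hg19 places the whole probe of PAX8 at chr2:113973575-113973634 (minus strand), that of MET at chr7:116438290-116438349 (plus strand), that of CDH2 at chr18:25530936-25530995 (minus strand) and that of CDH1 at chr16:68869214-68869273 (plus strand). G and C made up 51.7% of the bases of the PAX8 probe, 41.7% of those of MET and of VIM, 36.7% for CDH2 and 55.0% for CA9, and the probe of CDH1 had the lowest share of the 6.

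Of the 18 renal carcinoma markers in the list that holds these genes, 12 were expressed (66.7% against 63.5% of all protein-coding genes), 6 of them bright. The bright ones besides VIM and MET were the keratins of simple epithelia, with KRT18 at 6.82 ± 0.13, KRT19 at 6.03 ± 0.15, KRT8 at 5.43 ± 0.66 and KRT7 at 4.31 ± 0.28. EPCAM, an epithelial adhesion molecule, had a level of 1.84 ± 0.076, and CDH16, or kidney-specific cadherin, of 1.01 ± 0.23. AMACR, a peroxisomal enzyme used to recognise papillary tumours, was dim at -1.85 ± 0.61, as was the membrane peptidase MME at -2.80 ± 0.46. Besides CA9 and CDH1 the undetected markers were GPNMB, NDUFA4L2, KIT and CDH6. KIT is the marker of chromophobe tumours, and NDUFA4L2 is a target of hypoxia-inducible factors. The level of KRT8 was higher on EV2, with 5.10, 6.41, 4.97 and 5.24 on EV1 to EV4. The annotation places the probes of KRT8 and of KRT18 on chromosomes other than those of the genes, both genes have many processed copies, and their levels are uncertain.

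**Figure D1:**
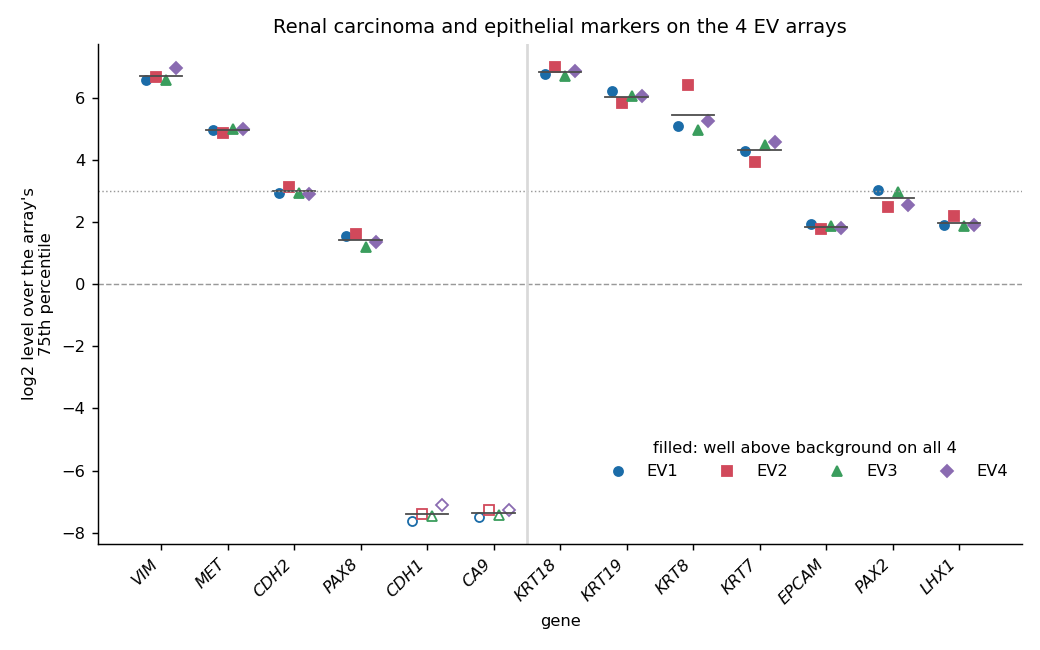
Log2 level over the 75th percentile of the array for 13 genes on EV1 to EV4, with 1 point per array and a bar at the mean; filled points are genes well above background on all 4 arrays, and the lines at 0 and 3 bound the middle band. VIM, MET and the keratins lie above 3, the means of PAX8, PAX2 and LHX1 between 0 and 3, and CDH1 and CA9 near the floor of the arrays.

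Epithelial and mesenchymal genes were both present. Of 36 genes of epithelial junctions and identity, 26 were expressed (72.2% against 63.5% of all protein-coding genes). Of these 26, 5 were bright and 15 dim. PKP3, a plakophilin of desmosomes, had a level of 3.80 ± 0.087, and DSP, which ties desmosomes to keratin, of 2.26 ± 0.088. The tight junction genes CLDN1, at 2.64 ± 0.20, and TJP1, at 1.17 ± 0.21, lay in the middle band. OCLN, at -2.43 ± 0.22, and CLDN4, at -3.78 ± 0.23, were dim, and so was MUC1 at -2.22 ± 0.29. The regulators of the epithelial state were at the low end: ESRP2, a splicing factor, had a level of -3.55 ± 0.13 and ELF3 of -3.96 ± 0.23, and ESRP1, GRHL2 and OVOL1 were not detected. CLDN7, DSC2, MARVELD3, RAB25, TJP3 and CDH1 were not detected either, and ST14 was well above background on 3 arrays.

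Among 20 mesenchymal genes, 19 were expressed, against 63.5% of all protein-coding genes, and 7 were bright, with a median level of 1.37 over the expressed ones against 0.28 over all expressed protein-coding genes. CYR61, a matricellular protein that responds to YAP, had levels of 6.73, 6.59, 6.71 and 6.63 on EV1 to EV4, CD44, the hyaluronan receptor, of 5.53, 5.43, 5.44 and 5.47, and AXL, a receptor tyrosine kinase of motile cells, of 4.70, 4.55, 4.44 and 4.61. The lowest and highest arrays differed by less than 0.3 for each. TGFBI, at 4.404 ± 0.16, THBS1, at 3.82 ± 0.16, and SPARC, at 3.03 ± 0.098, all of the extracellular matrix, completed the bright group with VIM. The factors that repress CDH1 were spread over the lower bands, with ZEB1 at 1.07 ± 0.062, TWIST2 at 1.37 ± 0.32, ZEB2 at -1.11 ± 0.46, SNAI1 at -2.10 ± 0.21, SNAI2 at -3.51 ± 0.43 and TWIST1 at -3.57 ± 0.12. FN1, or fibronectin, had levels of 1.19, 0.29, 1.44 and 1.03, with EV2 the lowest. MMP2, a gelatinase, was the member that was not detected.

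Among 30 transcription factors of kidney development and of nephron segments, 11 were expressed (36.7% against 63.5% of all protein-coding genes), none of them bright. The expressed factors of middle signal included PAX2, which with PAX8 specifies the renal lineage, at 3.04, 2.47, 2.96 and 2.55 on EV1 to EV4, and LHX1, at 1.90, 2.19, 1.89 and 1.89, besides PAX8 itself and IRX2 at 0.53 ± 0.23. LHX1 is known from the embryonic kidney. HNF4A and HNF4G, factors of the differentiated proximal tubule, were not detected. Neither were WT1 of the podocyte, GATA3, FOXI1 and TFAP2B of the distal nephron, or SIX2, CITED1 and EYA1 of the nephron progenitor, while OSR1, SIM2 and TFCP2L1 passed on 2 arrays each.

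Proximal tubule cells reabsorb most of the filtrate, and 13 of 30 of their genes were expressed (43.3% against 63.5% of all protein-coding genes). The middle band held 4 of these, and 9 were dim. HAVCR1, or KIM-1, which injured tubule cells and renal tumours make, had levels of 1.26, 0.30, 1.10 and 0.97, from a probe that the annotation places on another chromosome than the gene. DPP4, a brush border peptidase, had a level of 0.78 ± 0.17, the bicarbonate cotransporter SLC4A4 of 0.53 ± 0.12 and the amino acid transporter subunit SLC3A1 of 0.01 ± 0.14. LRP2, or megalin, the endocytic receptor of the brush border, was dim with levels of -1.60, -2.45, -1.36 and -0.88 and its partner AMN with -1.76, -2.93, -1.95 and -1.26, EV2 being the lowest for both, whereas CUBN, the receptor that AMN anchors, was not detected. The organic anion carriers SLC22A6 and SLC22A8, the urate carrier SLC22A12, the phosphate carrier SLC34A1, the water channel AQP1, the peptidase ANPEP and the gluconeogenic genes PCK1, FBP1 and G6PC were not detected. The glucose carrier SLC5A2 was dim at -4.07 ± 0.66, and SLC5A1 was not detected.

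Of 24 genes of the loop of Henle, the distal tubule and the collecting duct, 2 were expressed (8.33% against 63.5% of all protein-coding genes). The count depends on the call, being 9 by the software's milder call, 5 when 1 array sufficed, 4 when 3 sufficed and 1 when all probes of a gene had to pass. Both were claudins of the thick ascending limb, where they form a pore for magnesium and calcium. CLDN16 had levels of 1.78, 1.66, 1.67 and 1.75 and CLDN19 of -1.67, -1.51, -1.87 and -1.53, and the other probe of CLDN19 passed on no array. The transport genes SLC12A1, SLC12A3, KCNJ1, AQP2, AQP3 and SCNN1A were not detected. UMOD and HSD11B2 were well above background on 3 arrays. Podocyte genes were split: CLIC5, at 3.83 ± 0.25, PODXL, at 2.61 ± 0.044, ACTN4, at 2.58 ± 0.15, and SYNPO, at 0.40 ± 0.22, were expressed, as were CD2AP and KIRREL, and the slit diaphragm gene NPHS1 was not detected, nor were PTPRO, PLA2R1 and TCF21. The expressed ones include general genes of the actin cortex. The signal of CLIC5 came from 1 probe, and the other 2 of its 3 probes passed on no array.

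Markers of cells that a culture should lack were mostly absent. None of 12 endothelial genes was expressed, and all 12, among them PECAM1, CDH5, VWF and KDR, were not detected on any array. By the software's milder call 4 of them passed. Of 16 stromal genes, 6 were expressed (37.5% against 63.5% of all protein-coding genes). THY1 had a level of 2.86 ± 0.23, ACTA2, or smooth muscle actin, of 1.07 ± 0.33 and TAGLN of 0.10 ± 0.27. DES, RGS5 and CNN1 were dim. The fibrillar collagen genes COL1A1, COL1A2 and COL3A1, the receptors PDGFRA and PDGFRB, and DCN, LUM, POSTN, FAP and MYH11 were not detected. Of 22 leukocyte genes, 5 were expressed (22.7%) and 13 were not detected. CD68, a lysosomal protein of many cells, had a level of 0.42 ± 0.08. CD4, the T helper coreceptor, had levels of 1.25, 1.64, 1.15 and 1.81 and the B cell receptor subunit CD79A of -0.40, -0.57, -0.07 and 0.32, although the T cell genes CD3D, CD3E, CD3G and CD2 and the B cell genes MS4A1 and CD79B were not detected. PTPRC, the pan-leukocyte antigen, and the T cell coreceptor CD8A passed on 2 arrays each, TYROBP on 3 and SPI1 on 1. By the milder call 10 leukocyte genes were detected. CD14 and CSF1R lay at the dim end, with -4.09 ± 0.15 and -4.12 ± 0.23. Of 27 genes of other organs, 5 were expressed (18.5%), and ALB, APOB, INS, GFAP, MYOD1, HBB and TP63 were among the 19 not detected. The 5 became 12 by the milder call, 8 when 1 array sufficed and 3 when all probes had to pass. NEFL, the light neurofilament, had a level of 0.14 ± 0.13 and SNAP25, of the synapse, of -3.19 ± 0.16. The presence of RNA from other cells was not tested beyond these markers.

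**Figure D2:**
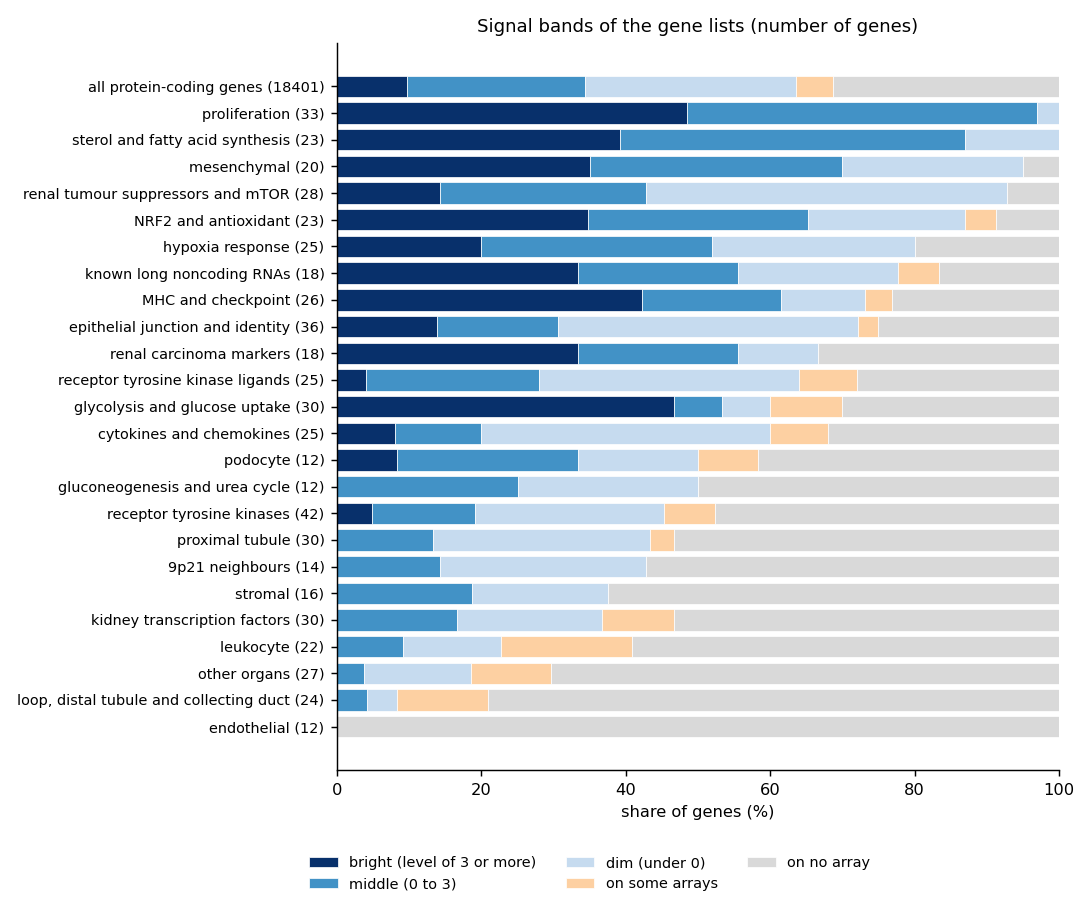
Share of genes in each signal band for the 24 gene lists and for all 18401 protein-coding genes, with the number of genes of each list in parentheses. All 33 proliferation genes and all 23 genes of sterol and fatty acid synthesis were expressed, and none of the 12 endothelial genes was.

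All 33 proliferation genes were expressed (100% against 63.5%), 16 of them bright. MCM7, of the replicative helicase, had levels of 6.31, 5.99, 6.25 and 6.20 on EV1 to EV4, TYMS, or thymidylate synthase, of 5.79, 5.71, 5.71 and 5.90, and PCNA, the sliding clamp, of 4.73, 4.93, 4.82 and 4.79. The 4 arrays lay within 0.4 of each other for each. CDK4 had a level of 4.70 ± 0.35, CDK6 of 3.54 ± 0.10, the mitotic cyclin CCNB1 of 3.99 ± 0.051 and the survivin gene BIRC5 of 4.54 ± 0.22. MKI67, the usual index of cycling cells, had a level of 0.91 ± 0.37, and CCND1, the cyclin of the early cycle, had levels of 1.12, 0.02, 1.10 and 1.10. The mitotic kinase AURKB varied between arrays, being 1.51, -0.92, 1.504 and 0.75 on EV1 to EV4. EV2 was the lowest array for both. CDK2 was the dim member at -1.44 ± 0.35.

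Of 42 receptor tyrosine kinases, 19 were expressed (45.2% against 63.5% of all protein-coding genes), and the bright ones were MET and AXL. RYK, at 2.90 ± 0.074, FGFR1, at 1.56 ± 0.38, EGFR, at 1.55 ± 0.14, ROR1, at 1.15 ± 0.35, and EPHB2, at 0.54 ± 0.58, lay in the middle band. EPHA2 had levels of 0.85, -0.72, 0.89 and 0.94 and lay under the 75th percentile on EV2. ERBB2, at -0.15 ± 0.065, and IGF1R, at -0.32 ± 0.31, were dim. MST1R, the relative of MET that binds MST1, had a level of -2.54 ± 0.35, and TYRO3 and MERTK, the relatives of AXL, had levels of -0.65 ± 0.16 and -4.30 ± 0.15. The receptors targeted by angiogenesis inhibitors, KDR, FLT1, FLT4, PDGFRA and PDGFRB, were not detected, and neither were RET, KIT, ALK, INSR, TEK and DDR2. Of 25 ligands of such receptors, 16 were expressed (64.0%, near the 63.5% of all protein-coding genes). VEGFB, at 3.80 ± 0.19, was bright, and PDGFC, at 2.77 ± 0.16, NRG1, at 2.49 ± 0.17, EREG, at 1.48 ± 0.11, and VEGFC, at 1.31 ± 0.011, were in the middle band. GAS6, the ligand of AXL, had levels of 0.17, -1.78, 0.25 and 0.24, with EV2 the lowest. HGF, the ligand of MET, was not detected, with levels of -7.57, -7.38, -7.51 and -7.12, nor were IGF1, IGF2, EGF, GDNF, ANGPT1 and ANGPT2.

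Of 28 renal tumour suppressors and genes of the mTOR pathway, 26 were expressed (92.9% against 63.5% of all protein-coding genes). VHL, the gene lost in most clear cell tumours, had levels of 2.17, 2.33, 2.14 and 1.97 on EV1 to EV4. FH, the fumarate hydratase gene mutated in hereditary leiomyomatosis with renal cell carcinoma, had a level of 3.27 ± 0.14, SDHB of 3.44 ± 0.052 and NF2, or merlin, of 4.58 ± 0.20. PBRM1, at -0.11 ± 0.25, BAP1, at 0.28 ± 0.56, and SETD2, at -1.47 ± 0.29, which encode chromatin regulators often mutated in renal carcinoma, lay around or below the 75th percentile. KDM5C, another of these, had levels of -0.71, 0.64, -0.76 and -0.25, with EV2 the highest. TSC1 had a level of -0.96 ± 0.11 and TSC2 of -0.35 ± 0.12. Arrays measure RNA at the probe and do not show whether a gene carries a mutation. The 2 genes of the list that were not detected, CDKN2B and MTAP, are neighbours on chromosome 9.

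Around CDKN2B and MTAP, a long stretch of chromosome 9 gave almost no signal. Between MLLT3 and CDKN2B, at hg19 chr9:20345191-22009038, the annotation places 33 probes of 31 gene names, and 32 of them passed the call on no array. These comprise 24 of 25 probes of named or unnamed transcripts and all 8 probes of lincRNA intervals, while over the whole array 41.8% of the first kind of probe and 64.6% of lincRNA probes passed on no array. The stretch holds the interferon genes, which most cells keep silent, and with them genes that are usually active in many tissues. Among these are KLHL9, an adaptor of a ubiquitin ligase, at levels of -7.40, -7.28, -7.50 and -7.26 on EV1 to EV4, FOCAD, listed under its older name KIAA1797, at -7.44, -7.22, -7.42 and -7.28, MLLT3, a subunit of elongation complexes, at -7.60, -7.39, -7.53 and -7.11, and MTAP, the methylthioadenosine phosphorylase of the methionine salvage pathway, at -7.05, -6.87, -6.97 and -6.94. All of these lie at the floor of the arrays. For MTAP all 3 probes were undetected, and the 1 with a position in the annotation lies at hg19 chr9:21865830-21865889 on the plus strand. The run of 16 protein-coding neighbours that were all undetected, from MLLT3 to IFNE, spanned hg19 chr9:20345191-21481161.

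CDKN2A, which encodes the cell cycle inhibitors p16 and p14ARF, was the exception. Its probe at hg19 chr9:21968039-21968098, on the minus strand, passed the call on every array with dim levels of -3.39, -2.22, -2.997 and -2.70, a mean of -2.83 ± 0.50 (SD, n = 4). Its other probe, at hg19 chr9:21970901-21970960 on the same strand, passed on none, with levels between -7.47 and -5.71. CDKN2B, which encodes p15, had levels of -6.15, -6.90, -7.22 and -6.18 and was undetected.

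Beyond CDKN2B a part of the probes passed the call. The CDKN2BAS transcript and the 9 lincRNA probes next to it were undetected. From there on, DMRTA1, a transcription factor gene, had levels of -1.64, -1.35, -1.76 and -1.90, TUSC1 of 0.02, 0.95, 0.06 and -0.83, CAAP1, listed as C9orf82, of -1.46, -1.58, -1.50 and -1.49 and PLAA of 0.03, 0.78, 0.08 and -0.02, all on EV1 to EV4. In this second stretch, up to PLAA, 13 of 31 probes were expressed and 15 were undetected, among them that of the neuronal gene ELAVL2. The copy number of the region was not measured, and whether it is deleted in these cells was not tested.

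**Figure D3:**
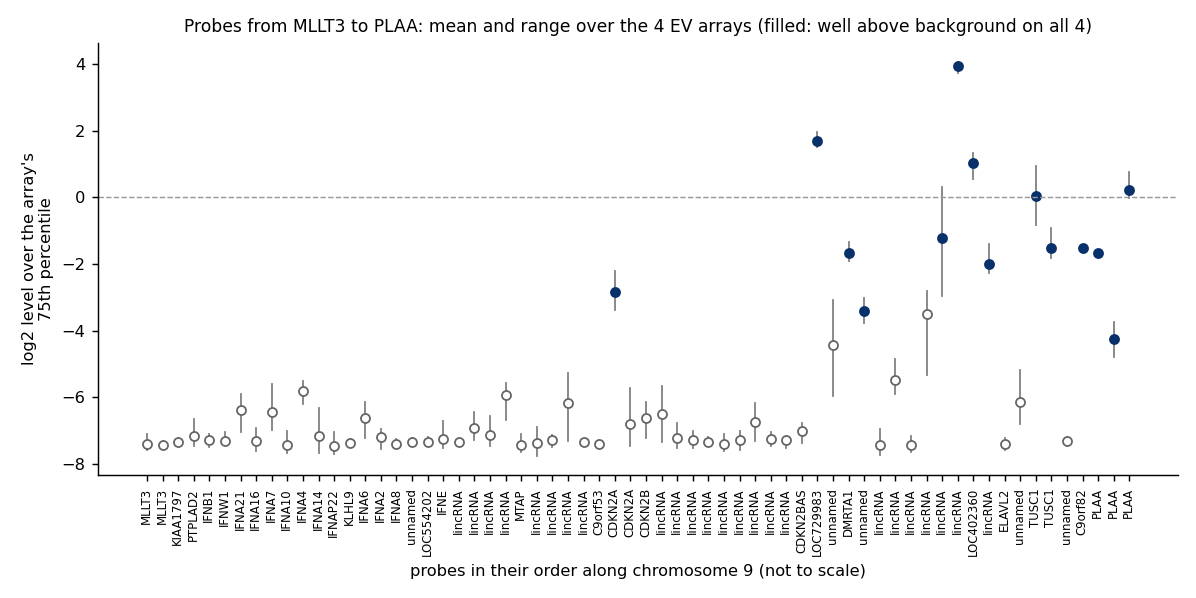
Log2 level over the 75th percentile for each probe placed on chromosome 9 from MLLT3 to PLAA, in order of position and not to scale, with the mean as a point and the range over the 4 arrays as a line; filled points are probes well above background on all 4 arrays. Of the 33 probes from MLLT3 to CDKN2B only 1 of the 2 for CDKN2A is filled, whereas 13 of the 31 probes beyond CDKN2B are.

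Of 30 genes of glycolysis and glucose uptake 18 were expressed (60% against 63.5% of all protein-coding genes), 9 were not detected, and 14 were bright (46.7% against 9.68%). GAPDH had levels of 7.21, 7.48, 7.18 and 7.42 on EV1 to EV4, LDHB of 7.30, 7.21, 7.15 and 7.30 and LDHA of 5.94, 6.42, 5.90 and 6.24. The 2 lactate dehydrogenase subunits were both expressed on every array. TPI1, at 5.86 ± 0.17, PKM2, at 5.84 ± 0.48, ALDOA, at 5.62 ± 0.15, ENO1, at 5.49 ± 0.52, and PGK1, at 5.05 ± 0.088, were also bright, as was SLC2A1, or GLUT1, at 3.15 ± 0.062. HK2 had a level of 2.38 ± 0.18, from a probe that the annotation places on another chromosome, and HK1 of 2.22 ± 0.051. The isoforms PKLR, SLC2A2, SLC2A4, GAPDHS and PGK2, of liver, muscle or testis, were not detected. The muscle isoform ENO3 was bright, from a probe that the annotation places on another chromosome than the gene, so its signal is uncertain. Of 12 genes of gluconeogenesis and the urea cycle, 6 were expressed: ASL, at 1.28 ± 0.21, ASS1, at 1.19 ± 0.18, and CPS1, at 0.23 ± 0.065, had middle levels, PCK2, NAGS and ARG2 were dim, and PCK1, FBP1, FBP2, G6PC, OTC and ARG1 were not detected. FBP1 is known to be lost in clear cell tumours.

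Of 25 genes of the hypoxia response, 20 were expressed (80.0% against 63.5% of all protein-coding genes), 5 of them bright. EPAS1, which encodes HIF-2α, had levels of 4.22, 3.91, 4.39 and 4.18 on EV1 to EV4 and HIF1A of 3.07, 3.29, 2.89 and 2.92. Both subunits were therefore present as RNA. NDRG1, at 4.54 ± 0.20, BNIP3, at 4.29 ± 0.15, and ADM, or adrenomedullin, at 3.87 ± 0.19, were bright, and ANGPTL4, at 2.72 ± 0.061, and the prolyl hydroxylase EGLN1, at 1.90 ± 0.13, were in the middle band. VEGFA, at -1.87 ± 0.19, was dim, and so was CA12, with levels of -1.67, -3.02, -1.80 and -2.09 and EV2 the lowest. CA9, NDUFA4L2, EGLN3, EPO and CXCR4, which hypoxia-inducible factors are known to raise, were not detected.

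Antioxidant genes gave 20 expressed of 23 (87.0% against 63.5% of all protein-coding genes). FTH1, of ferritin, had levels of 7.22, 7.47, 7.15 and 7.43, PRDX1, a peroxiredoxin, of 6.40, 6.71, 6.65 and 7.09 and TKT, of the pentose phosphate pathway, of 5.96, 5.57, 5.77 and 5.84. FTL, TALDO1, GPX4, HMOX1 and SRXN1 were bright too, with HMOX1, or haem oxygenase, at 3.64 ± 0.20. Several other genes that NRF2 is known to drive lay in the middle and dim bands. Among them were GCLM at 1.74 ± 0.13, NQO1 at 0.28 ± 0.25, SLC7A11 at 0.05 ± 0.075, TXNRD1 at -0.40 ± 0.29 and the aldo-keto reductase AKR1B10 at -1.33 ± 0.20. AKR1C1, another aldo-keto reductase, was not expressed, and its higher probe passed on 2 arrays. KEAP1, the inhibitor of NRF2, had a level of 2.02 ± 0.043, and the probe for NFE2L2, the gene of NRF2 itself, was not well above background. All 23 genes of sterol and fatty acid synthesis were expressed, 9 of them bright. FDPS had a level of 5.03 ± 0.17 and FASN of 3.09 ± 0.12. MVD was uneven, with levels of 0.23, -2.34, 0.00 and -0.33, the lowest being on EV2.

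Of 43 collagen genes, 14 were expressed (32.6% against 63.5% of all protein-coding genes) and 27 were not detected, whereas the milder call detected 22. COL18A1, the source of endostatin, had levels of 5.52, 5.06, 5.57 and 5.37 on EV1 to EV4 and COL4A2, of the basement membrane network, of 5.01, 5.29, 4.94 and 4.66. COL6A1 had a level of 2.41 ± 0.45 and COL7A1 of 2.25 ± 0.39, while COL5A1, at -3.08 ± 0.21, and COL5A2, at -3.70 ± 0.32, were dim. Laminins, the other network of the basement membrane, were expressed in 10 of 12 cases (83.3%), with LAMB1 at 4.69 ± 0.11, LAMC1 at 2.79 ± 0.45 and LAMB2 at 2.42 ± 0.44. Integrins, their receptors, were expressed in 17 of 27 cases (63.0%, near the 63.5% of all protein-coding genes), with ITGA3, a laminin receptor subunit, at 3.43 ± 0.29 and ITGAV at 3.02 ± 0.073. Of 23 matrix metalloproteinases 9 were expressed (39.1%), and MMP24 was the member outside the dim band, at 2.73 ± 0.13. MMP14 had levels of -3.04, -4.59, -3.24 and -3.39, with EV2 the lowest, and MMP1 a level of -3.86 ± 0.34. The inhibitors TIMP2, at 3.98 ± 0.26, and TIMP1, at 2.62 ± 0.23, were bright and middle, and TIMP3 was not expressed.

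Cadherins and claudins were sparse. Of 31 classical and desmosomal cadherin genes 9 were expressed (29.0% against 63.5% of all protein-coding genes). The middle band held CDH2, CDH13, at 2.47 ± 0.17, CDH22, at 1.17 ± 0.37, and CDH16. Of the 48 clustered protocadherins, 4 were expressed (8.33%). Of 22 claudins 9 were expressed (40.9%), with CLDN11 at 2.21 ± 0.37 besides CLDN1 and CLDN16. Keratins were expressed in 17 of 55 cases (30.9%), and 6 were bright. Annexins, which bind membranes in the presence of calcium, were expressed in 8 of 11 cases (72.7%), with ANXA2 at 6.41 ± 0.21, ANXA5 at 5.99 ± 0.19 and ANXA1 at 5.34 ± 0.097. Of 19 S100 genes 9 were expressed (47.4%), among them S100A6, at 7.26 ± 0.18, S100A2, at 6.52 ± 0.097, and S100A10, the partner of ANXA2, at 6.24 ± 0.085. Tubulins were expressed in 14 of 17 cases (82.4%), and TUBB1 of platelets was not.

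IGF-binding proteins were expressed in 5 of 7 cases (71.4% against 63.5% of all protein-coding genes). IGFBP7 had levels of 3.93, 3.85, 4.07 and 3.81 on EV1 to EV4, IGFBP6 of 2.57, 2.54, 2.57 and 2.57 and IGFBP3 of 0.96, -0.08, 1.15 and 0.88. IGFBP3 was the one with arrays far apart. IGFBP4 had a level of -2.36 ± 0.059, and IGFBP2 was dim but expressed, with levels of -4.22, -4.03, -4.24 and -4.11. IGFBP5 and IGFBP1 were not expressed.

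Of 26 genes of the MHC and of immune checkpoints 19 were expressed (73.1% against 63.5% of all protein-coding genes). Of the 26, 11 were bright (42.3% against 9.68%). HLA-B had levels of 4.396, 4.34, 4.44 and 4.56 on EV1 to EV4 and HLA-C of 5.75, 6.05, 5.84 and 6.24. These genes are near-identical in parts and vary between people, so the level of each is uncertain. B2M, the light chain, had a level of 5.02 ± 0.37, the peptide carrier TAP1 of 3.21 ± 0.074 and TAPBP of 2.84 ± 0.17. Of the inducible proteasome subunits, PSMB10 had a level of 5.04 ± 0.25, PSMB8 of 1.64 ± 0.21 and PSMB9 levels of 3.57, 1.48, 3.65 and 3.35. In the class II pathway HLA-DPB1, at 1.73 ± 0.078, and HLA-DPA1, at 0.40 ± 0.093, were expressed and HLA-DRB1 was dim, whereas HLA-DRA, HLA-DQA1, the invariant chain CD74 and the master regulator CIITA were not detected. Of the checkpoint ligands, CD276 was bright at 4.24 ± 0.37, and CD274, or PD-L1, was dim at -4.04 ± 0.28. The other probe of CD274 passed on no array. CD86 passed on 2 arrays, and PDCD1LG2 and CD80 were not detected.

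Of 25 cytokines and chemokines, 15 were expressed. CXCL1, a neutrophil attractant, had levels of 5.11, 4.74, 5.41 and 5.29 on EV1 to EV4, IL6 of 3.69, 3.31, 3.70 and 3.54 and CXCL2 of 2.97, 2.57, 3.25 and 3.18. IL6 and CXCL1 lay in the bright band. LIF, a cytokine of the IL6 family, had a level of 2.11 ± 0.35 and IL11 of -0.25 ± 0.20. IL8, at -2.74 ± 0.30, CCL2, at -2.65 ± 0.30, and CSF1, at -2.81 ± 0.11, were dim. The other probes of CSF1 passed on 2 arrays and on none. TNF, IL1A, IL1B, CXCL10 and CCL5 were not detected. Over all chemokine genes 10 of 39 were expressed (25.6%), and over the chemokine receptors 4 of 17 (23.5%), all 4 of them dim. GDF15, a distant member of the TGF-beta family that stressed cells release, had levels of 6.31, 6.19, 6.54 and 6.08. It was the bright member among 21 BMP and GDF ligands, of which 5 were expressed (23.8%).

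Complexes that every cell needs were expressed nearly in full. Of 84 cytosolic ribosomal protein genes, 82 were expressed (97.6%) and 80 were bright. They made up most of the 15 strongest signals, with RPL13 at 8.03, 8.35, 8.07 and 8.48, RPS2 at 8.09, 8.13, 8.09 and 8.24 and RPS27 at 7.92, 8.25, 7.85 and 8.10 on EV1 to EV4, and the others in that group included EEF1A1, the elongation factor, at 7.81 ± 0.25 and ACTB, or beta-actin, at 7.61 ± 0.21. RPL27A and RPL3L passed on some arrays only, RPL3L being the form of heart and skeletal muscle. Ribosomal protein genes have many processed copies in the genome, and probes cannot always tell them apart, so single values are uncertain. All 76 mitochondrial ribosomal proteins, all 36 aminoacyl-tRNA synthetases, all 37 NDUF genes of complex I, all 18 ATP synthase genes, all 14 genes of RNA polymerase II, all 9 of the chaperonin CCT, all 9 of splicing factor 3 and all 9 of the COP coats were expressed. Within these families, 28 NDUF genes and 14 ATP synthase genes were bright.

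The members missing from such families were mostly the forms of 1 tissue. In the proteasome, 37 of 39 genes were expressed, and PSMA8 of the testis and PSMB11 of the thymus were not detected. In cytochrome c oxidase, 12 of 17 genes were expressed, 11 of them bright, and the missing ones were COX4I2, COX6A2, COX7A1, COX7B2 and COX8C. COX6A2 and COX7A1 are forms of heart and muscle, whereas the general form COX6A1 had a level of 6.69 ± 0.16. In the V-ATPase, 17 of 21 genes were expressed, and ATP6V1B1 and ATP6V0D2, which serve the acid-secreting cells of the collecting duct and the osteoclast, were not, nor were ATP6V1G2 and ATP6V1G3. Translation initiation factors gave 50 of 53, without EIF4E3, EIF4E1B and EIF3IP1.

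Families restricted to other tissues lay at the opposite end. Of 382 olfactory receptor genes, 13 were expressed (3.40% against 63.5%), and 356 were not detected. None of 25 bitter taste receptors, 33 beta-defensins, 19 GABA-A receptor subunits and 10 interferon alpha and omega genes was expressed. Other such families were expressed in part, with 3 of 8 hemoglobins (37.5%), 14 of 82 keratin-associated proteins (17.1%) and 3 of 18 serotonin receptors (16.7%). Of the 37 cancer-testis genes of the MAGE, GAGE, XAGE and SSX families 3 were expressed, all SSX and all dim, with SSX3 at -4.26 ± 0.16, SSX2 at -4.45 ± 0.12 and SSX5 at -4.91 ± 0.12. SSX genes are near-identical, so these probes may read the same RNA. LCE1D, the bright gene of the late cornified envelope of skin, had levels of 4.92, 3.06, 4.87 and 5.82 on EV1 to EV4. CYP2W1, a cytochrome P450 known from colorectal tumours, had 6.46, 6.81, 6.64 and 6.53. Among 54 cytochromes P450, 14 were expressed (25.9%), 2 of them bright. UGT2B10, at 3.71 ± 0.075, and UGT2B7, at 3.15 ± 0.12, glucuronosyltransferases of liver and kidney with closely similar sequences, were bright, and of 12 UGT genes 3 were expressed. Aquaporins were expressed in 2 of 12 cases (16.7%), both dim.

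Transporters and traffic genes lay between these ends. Of 324 solute carriers 170 were expressed (52.5% against 63.5% of all protein-coding genes). Their strongest signal was that of SLC25A3, the mitochondrial phosphate carrier, at 6.78 ± 0.13. Of 49 ABC transporters 30 were expressed (61.2%), of 58 RAB GTPases 47 (81.0%) and of 20 glutathione transferases 13 (65.0%), with GSTP1 at 7.04 ± 0.27. Voltage-gated potassium channels were expressed in 10 of 40 cases. Of 527 zinc finger genes named ZNF, 337 were expressed (63.9%), but 258 of these were dim and 4 bright.

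**Figure D4:**
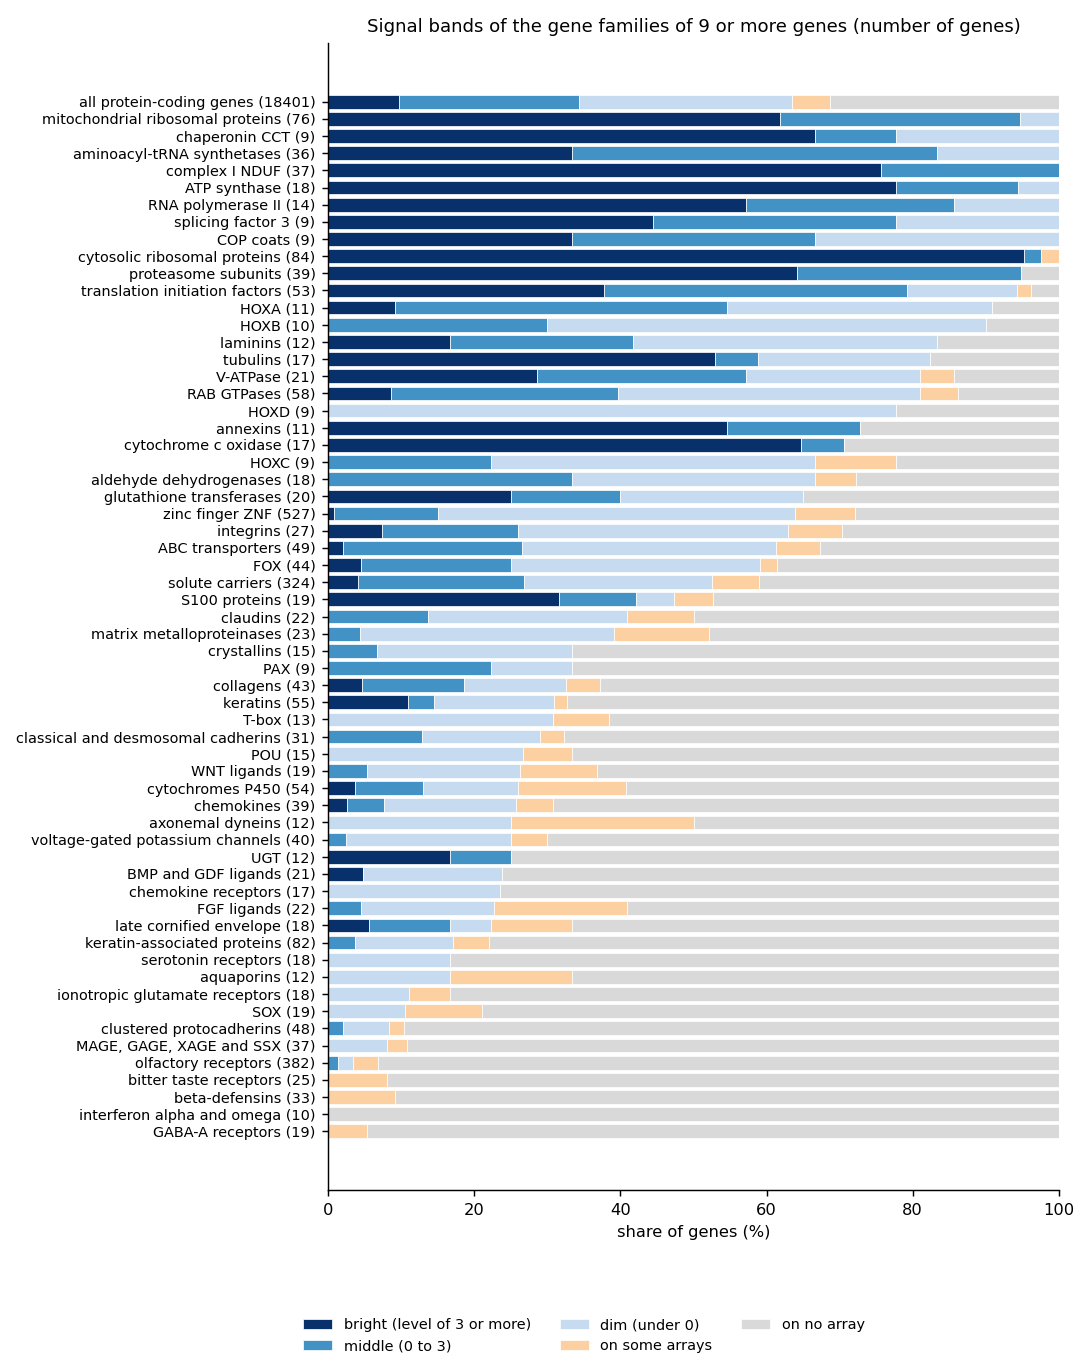
Share of genes in each signal band for the gene families with 9 or more genes and for all 18401 protein-coding genes, with the number of genes of each family in parentheses. Families of the ribosome, proteasome, complex I and ATP synthase lie at the top, and the olfactory, bitter taste and GABA-A receptors, beta-defensins and interferons at the bottom.

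Of the homeobox genes of the HOX clusters, 10 of 11 HOXA genes were expressed (90.9%), 9 of 10 HOXB (90%), 6 of 9 HOXC (66.7%) and 7 of 9 HOXD (77.8%), against 63.5% of all protein-coding genes. HOXA9 was bright, with levels of 4.07, 4.55, 4.36 and 4.52 on EV1 to EV4. HOXA7, at 2.33 ± 0.53, HOXA3, at 2.13 ± 0.14, HOXB2, at 2.08 ± 0.42, HOXB6, at 1.45 ± 0.21, and HOXC6, at 1.17 ± 0.16, lay in the middle band. All 7 expressed HOXD genes were dim, from HOXD10 at -0.23 ± 0.15 to HOXD1 at -4.26 ± 0.22. In the HOXC cluster, in which the HOTAIR gene lies between HOXC12 and HOXC11, these flanking genes and HOXC5 were not expressed. HOXB1, at the anterior end of its cluster, was not detected, and neither were HOXD4 and HOXD12. PAX2 and PAX8 were joined by PAX6, at -1.29 ± 0.18, and the other 6 PAX genes were not detected. Of 44 FOX genes 26 were expressed, with FOXI2 at 4.69 ± 0.13 and FOXP1 at 3.75 ± 0.087, and of 19 SOX genes 2, SOX4 at -2.76 ± 0.35 and SOX13 with levels of -3.19, -2.21, -3.42 and -3.31. Among signalling ligands of development, 5 of 19 WNT genes were expressed (26.3%), led by WNT5B at 0.95 ± 0.26. Of 22 FGF genes 5 were expressed (22.7%), of which FGF2, at 0.58 ± 0.11, was the member outside the dim band.

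By gene name, noncoding RNAs were detected less widely than coding genes. Of 911 gene names that RefSeq lists as lncRNA, 249 were expressed (27.3%), with a median level of -2.48 among the expressed. Of 7403 names of lincRNA intervals, 1786 were expressed (24.1%), with a median level of -2.84. An interval probed on both strands has a name for each strand, so this is a share of names and not of intervals. Among well-known lncRNAs 14 of 18 were expressed (77.8%). GAS5 and the SNHG genes are hosts of small nucleolar RNAs, and GAS5 had levels of 5.82, 5.76, 6.06 and 6.01 on EV1 to EV4, SNHG8 of 4.82, 4.85, 4.81 and 4.63 and SNHG1 of 3.80, 4.07, 3.95 and 3.86. TUG1 had a level of 2.17 ± 0.08, NEAT1, the scaffold of paraspeckles, of -2.10 ± 0.29, and the imprinted MEG3 of -0.70 ± 0.36. MALAT1 was well above background on 3 arrays. HOTAIR, the RNA that the study put into the other cells, was not detected in the EV cells, with levels of -6.29, -6.97, -6.42 and -7.07. H19 and MIAT were not detected either.

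The 4 arrays were close to each other except for EV2. Over expressed protein-coding genes the median SD was 0.194 on the log2 scale, and the middle 90% of genes had an SD between 0.0622 and 0.604. It was smaller for bright genes, at a median of 0.156, than for middle, at 0.178, and dim genes, at 0.228. The correlation between arrays over these genes, which share probes and scaling, was 0.978 to 0.979 for pairs with EV2, and up to 0.996 for the others. Genes that lay more than 1 log2 unit from the mean of the other 3 arrays numbered 687 on EV2 (200 above and 487 below), 95 on EV1, 35 on EV3 and 157 on EV4. By Dixon's gap test, in which chance marks about 1 in 20 groups, 1 array stood apart in 1019 of the expressed protein-coding genes (8.72%), and it was EV2 in 782 of these. Without EV2 the count of expressed protein-coding genes was 11827 and the median SD was 0.128, and genes with an SD above 0.5 fell from 1003 (8.58%) to 331 (2.83%).

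The difference between upstream and downstream probes of a transcript moved with EV2. The comparison used 1679 pairs of probes that lie 500 or more bases from each other on 1 transcript. Within pairs the upstream probe was the lower, by a median of 1.81 log2 units on EV2 against 1.43 to 1.53 on the other arrays. Within a pair the difference was lower on EV2 than the mean of the other arrays in 70.3% of the pairs. Its part in the values of EV2 was not tested.

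Some genes differed by many units between arrays that carry the same label. HAPLN2, a link protein of brain matrix, had levels of -1.04, -4.96, -0.27 and 0.18 on EV1 to EV4. FBRSL1 had 1.40, -1.42, 1.21 and 2.21, and FAM177B had -4.67, -0.16, -4.36 and -2.86. In the first and second of these EV2 was the lowest array, and in the third it was the highest. TTLL8, a tubulin ligase, had levels of -1.44, -1.73, 3.65 and 0.32, TMEM151B of -3.03, -2.13, -2.67 and 2.13 and BHLHE23, a transcription factor of neurons, of -0.78, -0.78, -0.47 and 3.24. In these 3 genes EV3 or EV4 was the high array. LOC100008589, which RefSeq now names RNA28SN5, a 28S ribosomal RNA, had levels of 7.35, 4.52, 7.62 and 8.20. Ribosomal RNA has no poly(A) tail. These genes were chosen for their spread, so their values describe the extremes and were not tested.

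**Figure D5:**
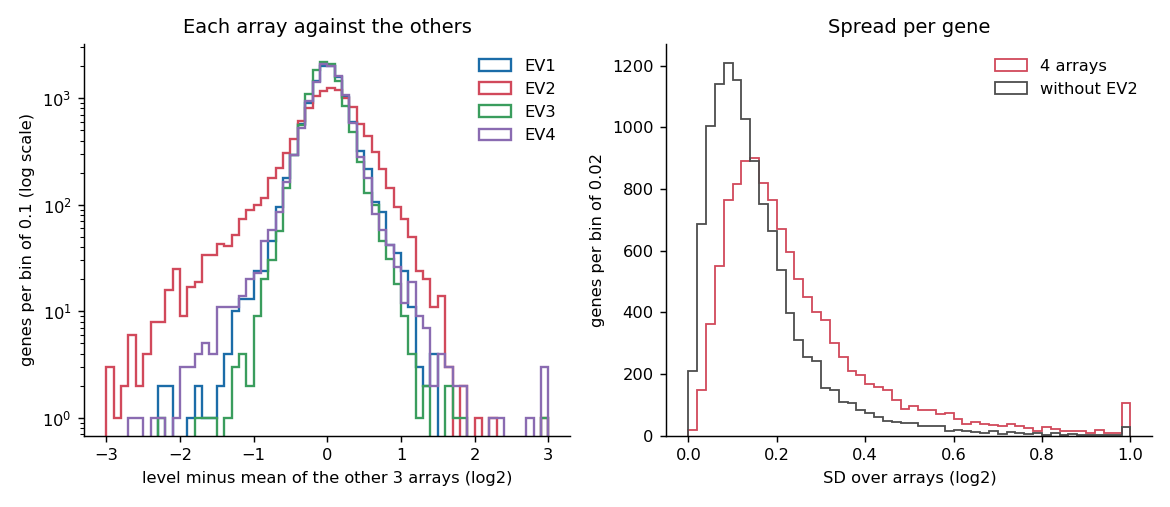
Left, the level on each array minus the mean of the other 3 arrays, over the expressed protein-coding genes, in bins of 0.1 on a log2 scale with the gene count on a log axis; right, the SD of each gene over all 4 arrays and without EV2. Values past the ends are drawn in the last bin, and the curve of EV2 is the widest of the 4 on the left.

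For 4997 protein-coding genes the array has more than 1 probe. All probes of the gene were expressed in 2477 of them (49.6%), and in 745 (14.9%) an expressed probe stood beside 1 that passed on no array. Requiring all probes to be expressed lowered the count of expressed protein-coding genes from 11692 to 10481. Some of these genes make different transcripts. For GNAS, which encodes the stimulatory G protein subunit, the probe of a common transcript had levels of 6.35, 6.58, 6.25 and 6.36, and a probe of the transcript for the neuroendocrine protein NESP55 had -7.67, -6.95, -7.56 and -7.13. The first 30 bases of the probes are shown. The annotation assigns the probes to different transcripts, and whether the first also reads the NESP55 transcript was not tested.
GNAS, common transcript: ccccgagtgattttgcgaaacccccttttc
GNAS, NESP55 transcript: tagagtacgaggaagagttcgactacgaga
For MT1H, of the metallothioneins that bind zinc, a probe at base 129 of the transcript had levels of 7.02, 7.30, 7.08 and 7.29, and a probe at base 257 had -6.71, -7.21, -7.47 and -6.39. The annotation places the first on chromosome 1, whereas the second lies on chromosome 16, and metallothionein genes are near-identical in their coding part, so that signal may come from another member. MT1A, at 7.44 ± 0.21, and MT2A, at 7.40 ± 0.23, gave strong signals of their own.
MT1H, base 129: agtgcaaaaagtgcaaatgcacctcctgca
MT1H, base 257: tgtcgggacagccctgctgtcagatgaaaa
The same gap was seen in FUT6, a fucosyltransferase, with means of 6.796 and -7.338 for its probes, in RPL28, with 7.04 and -6.98 for probes of different transcripts, and in SLC16A12, with 5.84 and -7.06. In each of these 3 genes the gap was present on every array. The annotation places the bright probe of SLC16A12 on chromosome 16 and the other probes of that gene on chromosome 10, so its level is uncertain. In the annotation the probe that stood for the gene lay on another chromosome than the RefSeq gene in 382 protein-coding genes, and their positions are not given here. Of the genes given with a level, besides MT1H and SLC16A12, this held for ACTB, ANXA2, COX6A1, FTH1, HAVCR1, HK2, KRT8, KRT18, MT1A, RPS2, RPS27 and TPI1. Their levels are uncertain for that reason. RefSeq gives the chromosome of LOC100008589 as unknown, so the place of its probe could not be compared, and its level is uncertain too.

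Promoters of expressed and undetected genes differed in base content. RefSeq promoters on GRCh38.p14, from 250 bases before to 50 bases after the start, matched 14751 of the 18401 protein-coding genes by gene ID. A promoter was called CpG-rich when at least 50% of its bases were G or C and the CpG dinucleotides reached at least 0.6 of the number expected from its base content. This held for 85.8% of bright, 85.1% of middle and 76.5% of dim genes, for 52.2% of those detected on some arrays, and for 33.1% of those not detected, against 65.5% of all. The motif TATAAA, on either strand, was found in 7.49% of bright, 5.01% of middle, 5.60% of dim and 17.4% of undetected genes, against 9.29% of all. Some families followed the same split. Of matched promoters, 4 of 285 for olfactory receptors (1.40%) and none of 68 for keratin-associated proteins were CpG-rich. For mitochondrial ribosomal proteins 64 of 68 were (94.1%), and for sterol and fatty acid synthesis 17 of 17. Other families did not follow it. SOX promoters were CpG-rich in 8 of 10 cases, although 2 of 19 SOX genes were expressed. For WNT ligands 13 of 16 promoters were CpG-rich, with 5 of 19 genes expressed. For axonemal dyneins 9 of 11 were, with 3 of 12 genes expressed. None of 34 keratin promoters was CpG-rich, although 17 of 55 keratin genes were expressed, 6 of them bright. These are descriptions of sequence, and promoter activity was not measured.

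The promoters of MET, bright, and of CA9, undetected, show the contrast, with the 100 bases before the start given 5′ to 3′ and CpG in capitals.
MET: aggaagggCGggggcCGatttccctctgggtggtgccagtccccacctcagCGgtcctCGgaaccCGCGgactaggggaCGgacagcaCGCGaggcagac
CA9: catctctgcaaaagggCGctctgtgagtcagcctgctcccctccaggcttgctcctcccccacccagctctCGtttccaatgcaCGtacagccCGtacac
The stretch of MET lies at chr7:116672096-116672195 on the plus strand and that of CA9 at chr9:35673828-35673927 on the plus strand, both on GRCh38.p14. In the full 300-base window MET had 30 CpG and CA9 had 7. The split was not complete, since the bright gene VIM had 10 CpG in its window and PAX8 13, and neither met the rule for CpG-rich. CDH2, at the top of the middle band, had 23 and was CpG-rich.

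Expressed genes were found on every chromosome examined, which left out Y. The share of protein-coding genes that were expressed ran from 51.8% on chromosome X and 54.8% on chromosomes 21 and 54.9% on 11 to 70.1% on 22 and 71.8% on 16. Chromosome 11 also held the longest run of undetected neighbours, 34 genes at hg19 chr11:55606873-57003412, most of them olfactory receptors. The longest run of expressed neighbours counted 36 genes on chromosome 2, from PAPOLG to PLEK at hg19 chr2:61025238-68624296.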

How the data were processed

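RNA of 4 EV samples of the human line ACHN was measured on 1-colour Agilent arrays, 1 sample per array. The authors scanned the arrays and extracted spot intensities with Agilent Feature Extraction 10.7.3.1, and the deposited intensity values used here are its processed signals, which are corrected for background. Deposited scanner annotation gives probe positions on hg19. The value table deposited with the series differed from the processed signal by at most 0.497% and served as an alternative, and its 3 columns of other samples were not used.

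Outlier spots and control spots were left out, spots of a probe were averaged after scaling, and levels are log2 of the deposited intensity minus log2 of the array's 75th percentile over non-control spots. A probe passed on an array where more than 0.5 of its spots were well above background. Of 42405 probes 10 had no usable spot on an array. RefSeq matched 26486 of the remaining 42395 probes (62.5%), 24826 of them by accession, 1188 by symbol and 472 by synonym, and 119 gene names were not reported. No comparison was tested, and 4 arrays set the limit of precision. The code for the calls was checked on simulated data, which does not test whether a call is right. Alternatives changed the call, the percentile, the normalization (quantile, normexp), the probe rule, the outlier spots and the arrays used.

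The genes named are the members of 24 gene lists, the expressed members of 67 families (the 4 brightest and 4 dimmest where over 8 were expressed) with the missing members of housekeeping families, the 15 highest levels, the 10 largest SD, the 8 highest and 8 lowest genes on EV2, and the 10 largest gaps between probes of a gene. Undetected members of other families, the metallothioneins MT1A and MT2A and the genes used as examples of shared probes were named after their values were seen. The values of some members are not reported here. The members and lists were chosen with earlier results of these data known. Sequences and gene names come from the arrays' probe annotation and from RefSeq on GRCh38.p14. Python 3.11.15, numpy 2.4.6, pandas 2.3.3, matplotlib 3.10.9, R 4.3.3 and limma 3.58.1 were used.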

Additional observations from a re-analysis of the deposited data

Results flagged for a closer look

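Among 242 expressed genes with a level in the text, 17 had 1 array apart from the other 3 by Dixon's gap test on the log2 level. Chance alone marks about 1 in 20 groups, and over all expressed protein-coding genes the share was 8.72%. The array was EV2 in 15 of the 17. EV2 was above the other arrays for ANXA5, at 6.2751 against a mean of 5.89, BNIP3, at 4.513 against 4.22, CCL2, at -2.2086 against -2.79, and CDH2, at 3.14 against 2.93. It was also above them for LHX1, at 2.1897 against 1.89, MKI67, at 1.4609 against 0.72, PLAA, at 0.7795 against 0.03, and TUG1, at 2.2896 against 2.13. EV2 was below the other arrays for CCND1, at 0.024 against 1.11, CSF1R, at -4.4528 against -4.00, EPHA2, at -0.7183 against 0.90, and GAS6, at -1.7843 against 0.22. It was also below them for PSMB9, at 1.476 against 3.52, TAGLN, at -0.2969 against 0.23, and IGFBP6, at 2.5361 against 2.57, where all arrays lay close together. On EV4 the level of BHLHE23 was 3.2416 against -0.67 on the others, and on EV1 the level of FOXI2 was 4.8862 against 4.63. The part of the lower 5′ signal of EV2 in these values was not tested.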

How the results depend on the processing

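The total counts of expressed genes stayed within 1.5 times of the reported ones under every alternative tried, and those of several gene lists did not. For protein-coding genes they ran from 10481, when all probes of a gene had to pass, to 13551 by the software's call for a positive and significant signal, and from 11713 to 11850 without 1 array. By that call 2281 protein-coding genes were detected on no array, against 5762, and 5793 to 5873 without 1 array. Taking the 75th percentile over spots well above background moved the level of each named gene by -1.88. It moved the bright band from 1781 to 465 genes, the middle band from 4546 to 2755, the dim band from 5365 to 8472, and the median level of named genes from 0.987 to -0.8933. With the mean over the probes of a gene this median was 0.2838. Quantile normalization, normexp, the deposited table and kept outlier spots left the bright band at 1634 to 1781. Single levels moved more: normexp shifted 125 of 325 named genes by more than their SD, with shifts from -0.22 to 1.73, and the mean over probes shifted 93, by as much as -7.43. Without 1 array the bright band held 1773 to 1800 genes, the middle band 4531 to 4559, the dim band 5408 to 5518, and the median named level was 0.9673 to 1.0437. The median SD ran from 0.1277 without EV2 to 0.2084 without EV3. Without 1 array the expressed genes of the lists numbered 326 to 329 and all expressed names 15870 to 16212. By the software's milder call 10 leukocyte, 4 endothelial and 82 olfactory receptor genes, 12 genes of other organs, 9 of the distal nephron and 22 collagens were detected, against 5, 0, 13, 5, 2 and 14. When 1 array sufficed, leukocyte genes numbered 9, genes of other organs 8, those of the distal nephron 5 and olfactory receptors 26. No paired analysis was possible because only 1 group was described. Undetected genes are limited by signal over background, and the causes of these shifts beyond their construction were not tested.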

Other observations

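Several families not described above were expressed in part, and they are given as values. Of 15 crystallins 5 were expressed (33.3%), and CRYAB, a small heat shock protein found in many tissues, had a level of 1.70 ± 0.18 (SD, n = 4). Of 18 aldehyde dehydrogenases 12 were expressed (66.7%, near the 63.5% of all protein-coding genes). ALDH18A1, of proline synthesis, had a level of 2.35 ± 0.058 and ALDH7A1, of lysine breakdown, of 2.06 ± 0.19. Of 12 axonemal dyneins, the motors of cilia, 3 were expressed, all dim. Among developmental transcription factors, 4 of 15 POU genes (26.7%), 4 of 13 T-box genes (30.8%) and 2 of 6 GATA genes (33.3%) were expressed, all dim. TBX18, known from the ureter mesenchyme, had a level of -3.16 ± 0.12. Of 55 keratins the bright ones outside simple epithelia were KRT10, at 3.68 ± 0.39, and KRT80, at 3.57 ± 0.19. Of 18 late cornified envelope genes 4 were expressed (22.2%), all of the first subgroup, in which sequences are closely similar. Of 45 small nucleolar RNAs 12 were expressed (26.7% against 45.4% of all gene names), and the strongest signal was SNORA10 at 1.61 ± 0.14.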
